A study of Drosophila melanogaster with 24 samples.

Results

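The step from lights-off to midnight was described in large PDF neurons of wild-type flies, as arrays at ZT18 against arrays at ZT12. ZT is zeitgeber time in hours, with lights on at ZT0 by convention and lights off at ZT12 in the 12 h light and 12 h dark cycle. The members were set by their labels, as the 2 ZT18 arrays and the 3 ZT12 arrays of this cell kind, 5 of the 24 arrays of the series. This choice and that of the gene lists were made with earlier results of these data known. Both groups came from brains of adult male and female flies of yw background that carried a GFP label for PDF cells (pdf-GFP, with no more said of the driver in the labels), and by the labels they differed in time alone. The labels count the replicates as biological, with cells of about 50 brains pooled in each sample, and the series' design text says that GFP cells were picked by hand. The other arrays hold the same cells at ZT0 (3 arrays) and ZT6 (2 arrays), small PDF neurons, general neurons labelled through ELAV and large PDF neurons of per01 flies, and they enter here for the estimate of spread, for the day step from ZT0 to ZT6 and for checks at ZT12 and ZT0.

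Large PDF neurons are clock neurons of the fly brain that release the neuropeptide PDF and are known for their part in light-driven arousal and in setting the clock by light. In the clock loop, the factors CLK and CYC switch on per, tim, vri, Pdp1 and cwo near dusk. The proteins PER and TIM then enter the nucleus during the night and stop CLK and CYC, while VRI holds down Clk and PDP1 raises it. ZT12 is therefore the hour at which many targets of the clock are known to peak in fly heads, and ZT18 lies in the repression phase.

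The values are log2 GCRMA values of probe sets, each a group of probes that reads 1 transcript or a few. A probe set was kept with a value of 5 or more on at least 2 of the 24 arrays, which left 8318 probe sets. Calls were made in limma at a Benjamini-Hochberg adjusted p under 0.05, over all 8318. The words rose, fell, higher and lower are used for called probe sets unless an unadjusted p is named, and differences are ZT18 minus ZT12 in log2 with the standard error. The 2 ZT18 arrays had medians of 3.44 and 3.32 over all probe sets and the ZT12 arrays had 3.15, 3.35 and 3.21. Replicates correlated at 0.943 at ZT18 and at 0.880 to 0.924 at ZT12, and arrays of different times at 0.863 to 0.917. Pdf stood at 15.89 and 15.92 at ZT18, against 15.90, 15.50 and 15.99 at ZT12, near the top of the scale. PDF cells were thus present on all 5 arrays. Small PDF neurons make Pdf as well, so its level does not tell large from small PDF neurons. Sorted cells were pooled, so fewer cells of a kind and less RNA per cell cannot be told apart in any value given here.

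Markers of other cells were mixed. VGlut, the vesicular glutamate transporter, stood at 2.54 on both ZT18 arrays and at 2.45 to 2.51 on the ZT12 arrays. Of 3 cholinergic markers 0 reached 5 on any of the 5 arrays. Of 7 monoaminergic markers 5 and 4 reached 5 at ZT18, against 5, 5 and 5 at ZT12, with a summed linear level of 3252 and 4521 at ZT18, against 7937, 6670 and 12714 at ZT12. Most of that sum at ZT12 was Tdc2 and Ddc, whose differences are given below. Tbh went the other way, with 9.80 and 10.40 at ZT18, against 8.59, 8.41 and 9.76 at ZT12. The dopamine transporter gene DAT stood at 9.94 and 10.05 at ZT18, against 9.84, 9.55 and 10.33 at ZT12. The defining genes Vmat, for vesicle loading, and ple, for dopamine synthesis, stayed under 5 on all 5 arrays. Gad1, which makes GABA, stood apart on 1 array. It stood at 2.98 on ZT18 replicate 1 and at 9.51 on ZT18 replicate 2, against 2.78, 2.94 and 2.83 at ZT12. Of the 3 GABAergic markers only Gad1 reached 5 on ZT18 replicate 2, since VGAT stood at 4.54 and Gat at 2.43 there, and on ZT12 replicate 3 only VGAT did (5.69). The summed linear level of the 3 was 28.1 and 755 at ZT18, against 42.4, 29.9 and 63.7 at ZT12. Glial markers reached 5 in 1 and 2 of 11 genes at ZT18, against 3, 2 and 4 at ZT12. Their summed linear level was 2554 and 3039 at ZT18, against 1693, 1237 and 1987 at ZT12. Most of that sum was Eaat2 alone, at 11.25 and 11.50 at ZT18, against 10.59, 10.11 and 10.82 at ZT12. The glial gene repo stood at 3.25 and 3.46 at ZT18, against 5.14, 3.63 and 3.04 at ZT12. Haemocyte markers reached 5 in 2 and 3 of 11 genes at ZT18, against 3, 5 and 4 at ZT12. Among them Pxn stood at 11.09 to 11.45 on all 5 arrays. Fat body markers reached 5 in 5 and 4 of 10 genes at ZT18, against 6, 5 and 4 at ZT12. For Kenyon cell markers this was 4 and 5 of 9, against 6, 7 and 4, and for muscle markers 1 and 1 of 11, against 0, 0 and 1. The part of these signals in the differences below was not tested.

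More probe sets were called lower than higher 6 hours after lights-off. Of 8318 probe sets, 84 were called, which is 1.01% of those tested. Of these, 68 were lower at ZT18 (0.818%) and 16 were higher (0.192%). They stand for 66 genes that fell and 15 that rose, besides 1 probe set shared by 2 genes and 2 without a gene symbol. At an unadjusted p under 0.05, 874 were lower (10.5%) and 488 were higher (5.87%). All 84 called probe sets differed at least 2-fold. None of the 84 had overlapping ZT18 and ZT12 arrays, and of all probe sets 18.2% lay without overlap in the lower direction and 13.3% in the higher one. The median difference was -2.41 over the 68 that fell and 2.26 over the 16 that rose, beside -0.083 over all probe sets. The plot of difference against level shows the falls at all levels of expression.

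**Figure D1:**
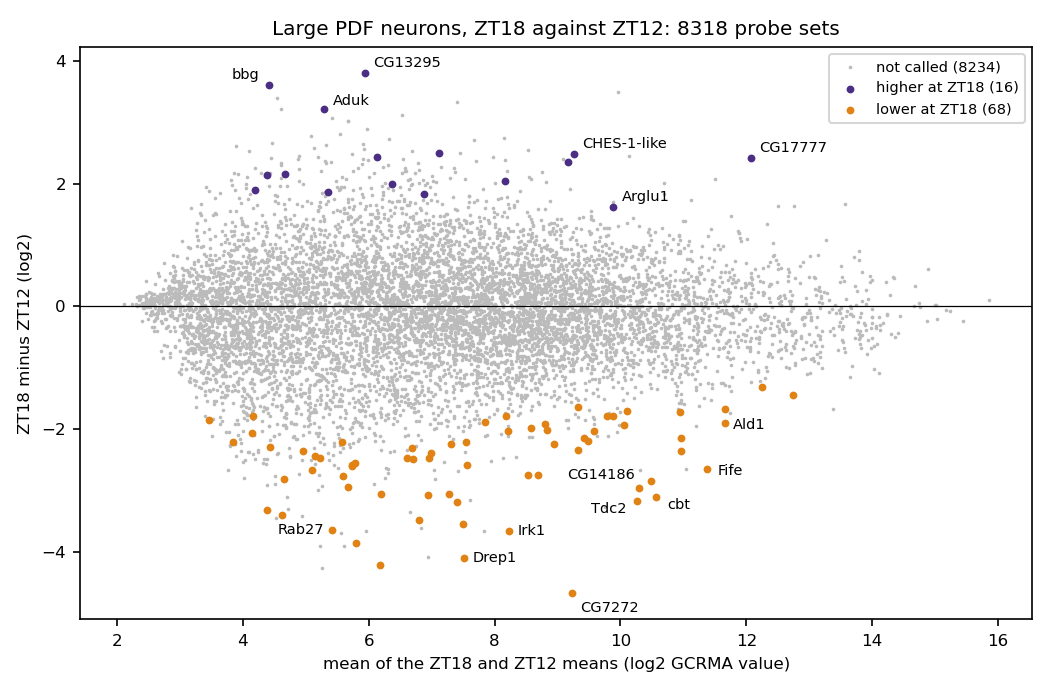
Difference between ZT18 and ZT12 (log2, vertical axis) against the mean of the 2 group means (log2 GCRMA value, horizontal axis) for 8318 probe sets, 1 point each. Of the called probe sets 16 lie above 0 and 68 below, from CG13295 at 3.80 down to CG7272 at -4.67.

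The split between falls and rises moved with scaling and filter. Of the calls 39.2% were higher at ZT18 after quantile normalization, 10.3% after median centring and 56.1% without the filter on low values, beside 19.0% here. Median centring moved the median of all probe sets to -0.226. These calls rest on a spread shared by 24 arrays in 10 groups. With only the 5 arrays in the fit, limma called 0 probe sets (938 at an unadjusted p under 0.05), and with the 10 wild-type large PDF arrays it called 14. Leaving out ZT18 replicate 1 left 13 calls and leaving out ZT18 replicate 2 left 44, while 48, 77 and 101 were called without ZT12 replicates 1, 2 and 3. The sign of all 84 stayed in each of these fits with fewer arrays. It could not have turned there, since none of the 84 had overlapping arrays, so this is no check of the calls. Drep1, Rab27 and Fife, all lower, were the only 3 called in all 5 of these refits, each of which leaves out 1 of the 5 arrays.

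The most stable falls included 2 genes of regulated release. Fife codes for a scaffold protein of the presynaptic active zone, related to Piccolo and RIM. It stood at 10.05 and 10.04 at ZT18, against 12.54, 12.67 and 12.88 at ZT12. The ZT18 arrays lay together, more than 2 log2 units below the lowest ZT12 array. The difference was -2.65 ± 0.33 (adjusted p = 0.00141, limma), and the adjusted p reached at most 0.0152 in the refits. Fife was named after its values were seen, since its called probe set fell outside the largest changes, and its other probe set, near background, gave -2.10 (adjusted p = 0.306).

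Rab27 codes for a small GTPase that brings secretory vesicles to their release sites. It stood at 3.98 and 3.21 at ZT18, against 6.59, 7.74 and 7.40 at ZT12. Both ZT18 values lay in the range of background, so the fall was at least 4.73-fold when values under 5 are raised to 5. The fitted difference was -3.65 ± 0.50 (adjusted p = 0.00247). Rim, an active zone gene that tethers calcium channels and vesicles, fell on 1 of its 3 probe sets, with -2.24 (adjusted p = 0.0227). That call was lost in 4 of 5 refits (up to 0.149), and the brightest probe set of Rim gave -0.85 (adjusted p = 0.216).

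As a list, 24 measured synaptic vesicle and active zone genes had 0 called, with Fife and Rab27 not among the listed genes and Rim read by its brightest probe set. The median was -0.38 and 19 of 24 differences were negative, beside a median of -0.080 and 3606 of 6663 over all genes. At an unadjusted p under 0.05, 4 of 24 were lower (16.7%, beside 10.4% over all genes) and 0 higher (beside 5.84%). Rop, which guides vesicle fusion, gave -1.90 (adjusted p = 0.0802), Rbp, the RIM-binding protein, gave -1.51 (0.189) and Rph, rabphilin, gave -0.90 (0.159). On the other side unc-13, the vesicle priming factor, stood at 0.19 and Syt7 at 0.61. Without ZT18 replicate 1 the list had 0 members at an unadjusted p under 0.05 in the lower direction, with a median of -0.37.

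The machinery that makes PDF from its precursor gave small differences, mostly of 1 sign. Of 13 peptide processing genes 0 were called and 11 were negative, with a median of -0.44 (-0.32 without ZT18 replicate 1 and -0.76 without ZT18 replicate 2). In 7 of 13 the ZT18 arrays lay below all ZT12 arrays, which occurred in 18.2% of all probe sets. The amidating enzyme gene Phm had 12.45 and 12.94 at ZT18, against 13.55, 13.49 and 14.05 at ZT12 (adjusted p = 0.147). The prohormone convertase gene amon had 13.54 and 13.52 at ZT18, against 14.19, 14.25 and 14.45 at ZT12 (-0.77, adjusted p = 0.214). Among 18 neuropeptide genes 0 were called. Dh31, a diuretic hormone gene of the clock network, ranged widely at ZT12 (10.26, 7.72 and 3.55) and lay at 2.54 and 4.00 at ZT18 (-3.91, adjusted p = 0.123).

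A monoamine enzyme gene changed by more. Tdc2 codes for the neuronal tyrosine decarboxylase, which makes tyramine, the precursor of octopamine. It stood at 8.34 and 9.01 at ZT18, against 11.66, 11.51 and 12.34 at ZT12. The gap of 2 log2 units and more between the groups exceeded the spread within each. The difference was -3.16 ± 0.59 (adjusted p = 0.0152), and it lost its call without ZT18 replicate 1 (adjusted p = 0.191). Ddc, an enzyme of dopamine and serotonin synthesis, had 9.80 and 10.59 at ZT18, against 11.68, 11.25 and 12.23 at ZT12, and was not called (-1.52, adjusted p = 0.0834). Tbh, which turns tyramine into octopamine, had 1.19 (adjusted p = 0.226). The octopamine receptor gene Octbeta1R gave -2.65 (adjusted p = 0.0601) and the dopamine receptor gene Dop1R1 gave 3.32 (adjusted p = 0.0898). Tdc2 was the only one of 13 measured transmitter synthesis and transport genes called, and in this list Gad1 gave 3.39 through 1 array.

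Among genes that set excitability, Irk1 fell. It codes for an inward-rectifier potassium channel. Its values were 7.0 and 5.79 at ZT18, against 9.62, 10.09 and 10.47 at ZT12, and 2.98 to 6.12 on the ZT0 and ZT6 arrays. Both ZT18 arrays lay below all ZT12 arrays, and 1 of them lay within the range of ZT0 and ZT6. The difference was -3.66 ± 0.77 (adjusted p = 0.0257), and the call was lost in each of the 5 refits (adjusted p up to 0.168). Of the 14 potassium channel genes Irk1 was the only one called, and the median was -0.13. Teh2, an accessory subunit of sodium channels, fell by 2.44 (adjusted p = 0.0206) with both ZT18 values under 5, and lost its call in 3 of 5 refits (adjusted p up to 0.344). Of the other channels, the calcium channel subunit gene Ca-beta gave 3.02 (adjusted p = 0.0625) and the T-type calcium channel gene Ca-alpha1T gave -1.87 (adjusted p = 0.0746), neither called.

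Signalling genes that fell act at several levels. Pka-R1, the type I regulatory subunit of protein kinase A, stood at 9.91 and 9.86 at ZT18, against 12.04, 11.92 and 12.13 at ZT12. The replicates at each time lay close together, and the difference was -2.14 ± 0.34 (adjusted p = 0.00568). The call was lost without ZT18 replicate 1 (adjusted p = 0.0617), and a dimmer probe set of the gene gave -1.65 (adjusted p = 0.257). It was the only one of 20 genes of cAMP and calcium signalling called, where the phosphodiesterase gene Pde1c gave 2.09 (adjusted p = 0.0652).

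Dyrk2, a kinase of the DYRK family, had 4.98 and 6.48 at ZT18, against 8.55, 9.63 and 9.63 at ZT12. The difference was -3.54 ± 0.66 (adjusted p = 0.0152), lost without ZT18 replicate 1 (0.224). Fs codes for follistatin, a secreted antagonist of activins, and had 4.82 and 5.29 at ZT18, against 8.89, 7.58 and 9.16 at ZT12 (-3.49 ± 0.71, adjusted p = 0.0231, lost in 4 of 5 refits, adjusted p up to 0.224). On all 5 arrays of ZT0 and ZT6 both genes lay above their ZT18 values, so ZT18 was their low point. Chosen after their values were seen, the receptor tyrosine kinase inhibitor gene sty fell by 3.19 (adjusted p = 0.00568, lost without ZT18 replicate 2 at 0.0738) and the growth-factor kinase gene Pdk1 fell by 2.23 (adjusted p = 0.00568, lost without ZT18 replicate 1 at 0.0665). A second probe set of sty gave -0.28 (adjusted p = 0.905).

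Among called genes with a name the largest fall was that of Pgant9, whose enzyme starts O-linked sugar chains in the Golgi. It had 4.00 and 4.16 at ZT18, against 8.11, 9.41 and 7.35 at ZT12, a fall of at least 9.77-fold (-4.21 ± 0.75, adjusted p = 0.0124). The call was lost without either ZT18 array (adjusted p up to 0.111). Other genes of the Golgi, named after their values were seen, fell too. Grasp65, a stacking protein of the Golgi, had 5.63 and 5.30 at ZT18, against 8.49, 7.89 and 7.44 at ZT12 (-2.48 ± 0.46, adjusted p = 0.0152). Cog6 and fws, 2 subunits of the tethering complex COG, fell by 2.39 (adjusted p = 0.0243) and 2.46 (adjusted p = 0.0468), and Tango5 fell by 2.54 (adjusted p = 0.0335). The calls of these 4 were lost in 3 or 4 of 5 refits (adjusted p up to 0.0953 for Grasp65, 0.149 for Cog6, 0.421 for fws and 0.405 for Tango5). Picked from the called genes, they are no count of how Golgi genes as a group behaved.

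Drep1, with the greatest fall among the 3 most stable calls, codes for a member of the family related to the DNA fragmentation factor. It had 4.97 and 5.98 at ZT18, against 9.17, 9.58 and 9.96 at ZT12 and 5.56 to 6.93 at ZT0 and ZT6. ZT12 was thus a peak that was gone 6 hours later. The difference was -4.09 ± 0.52 (adjusted p = 0.00141), with an adjusted p of at most 0.0280 in the refits. CG7272, a gene without an assigned role here, also had its highest values at ZT12, with 6.41 and 7.37 at ZT18, against 11.61, 10.87 and 12.19 at ZT12 and 4.50 to 7.74 at ZT0 and ZT6. It gave the greatest difference of all probe sets (-4.67 ± 0.75, adjusted p = 0.00568), lost without ZT18 replicate 1 (0.0972).

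Nuclear proteins were among the falls as well. The gene danr, which codes for a nuclear protein of antenna and eye development, had 3.49 and 4.25 at ZT18, against 7.32, 8.55 and 7.31 at ZT12. It fell at least 6.61-fold (-3.86 ± 0.90, adjusted p = 0.0468, lost in each of the 5 refits, adjusted p up to 0.348). Irbp, the Ku70 subunit that binds broken DNA ends, lay at 2.75 and 2.70 at ZT18, against 6.14, 6.27 and 5.70 at ZT12, a fall of at least 2.05-fold (-3.31 ± 0.56, adjusted p = 0.00867, lost without either ZT18 array, up to 0.0794). Of 20 listed chromatin regulators 0 were called, with 6 lower at an unadjusted p under 0.05 (30%, beside 10.4% over all genes) and a median of -0.31. That median was 0.01 without ZT18 replicate 1 and -0.57 without ZT18 replicate 2, so its direction rests on 1 array. Outside that list and named after the values were seen, trr, a histone H3K4 methyltransferase, fell by 2.59 (adjusted p = 0.00867, lost without ZT18 replicate 1 at 0.165), and Tet, a demethylase-family enzyme, fell by 2.21 (adjusted p = 0.0468, lost in 4 of 5 refits, up to 0.345).

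Of the remaining genes named by the size of their fall, nemy, a cytochrome b561 gene needed for memory, lay at 3.15 and 2.69 at ZT18, against 5.91, 6.88 and 6.17 at ZT12. It fell at least 2.50-fold (-3.40 ± 0.59, adjusted p = 0.0094, lost without either ZT18 array, up to 0.0695). Nadk1a, an NAD kinase gene, had 4.38 and 6.44 at ZT18, against 9.42, 8.68 and 7.36 at ZT12 (-3.08 ± 0.70, adjusted p = 0.0466, lost in 3 of 5 refits, up to 0.444). CG14086 had 3.60 and 4.81 at ZT18, against 7.42, 5.74 and 8.26 at ZT12, and 2.17 to 3.31 at ZT0 and ZT6, so it was above the floor of 5 at ZT12 alone among the 4 times (-2.94 ± 0.67, adjusted p = 0.0462, lost in 4 of 5 refits, up to 0.397).

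**Figure D2:**
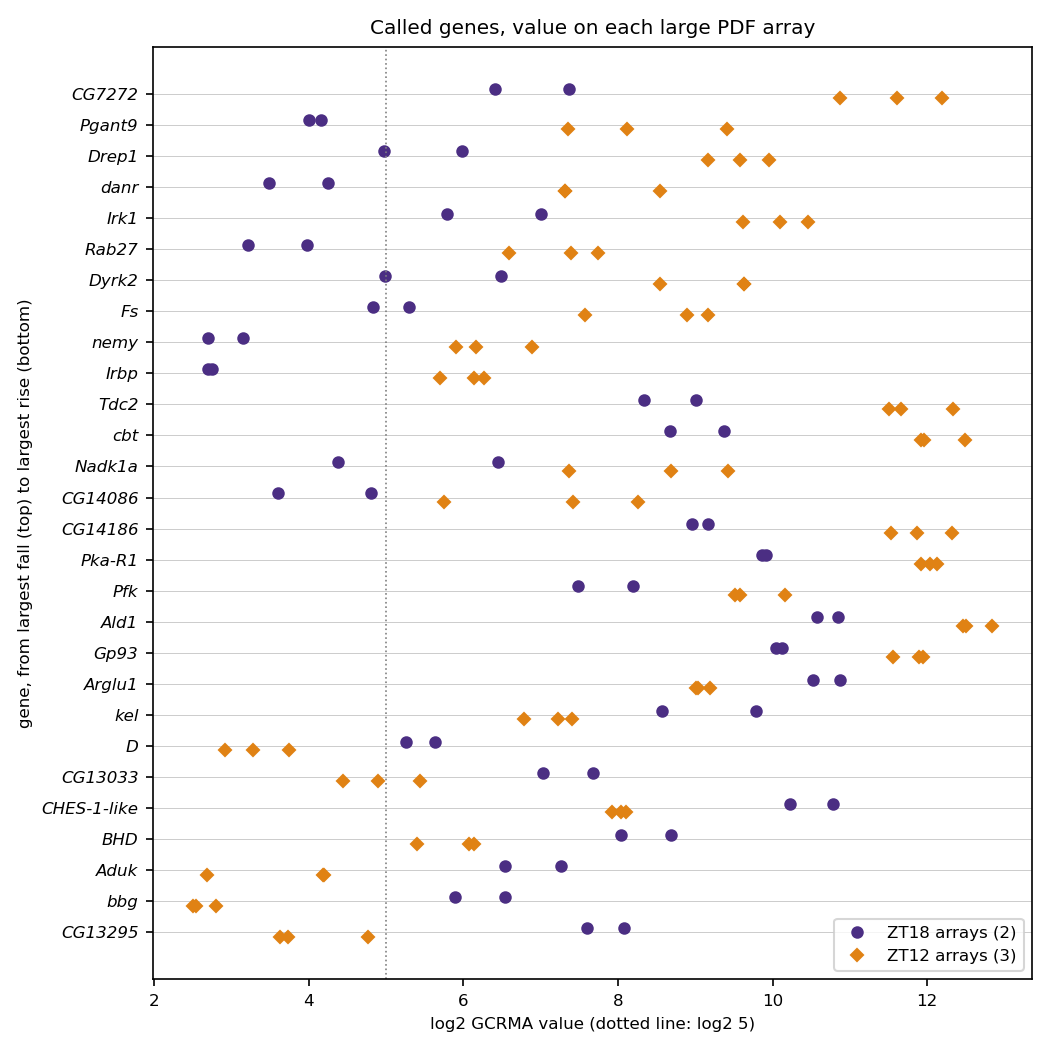
Log2 GCRMA value (horizontal axis) of each called gene of the naming rule on the 2 ZT18 arrays (circles, upper line of a gene) and the 3 ZT12 arrays (diamonds, lower line), ordered from the greatest fall at the top to the greatest rise at the bottom. No gene shown has overlapping groups, and the dotted line marks log2 5, under which values are mostly background.

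Genes that neurons switch on with activity leaned down, with 2 calls. Of 13 measured activity-regulated and stress-kinase genes, 2 fell and 0 rose, 7 were lower at an unadjusted p under 0.05 (53.8%, beside 10.4% over all genes), and the median difference was -1.36. The zinc finger gene cbt, an early response factor, stood at 9.37 and 8.67 at ZT18, against 11.96, 12.49 and 11.92 at ZT12 (-3.10 ± 0.49, adjusted p = 0.00568, lost without ZT18 replicate 2 at 0.0606). At ZT0 and ZT6 it ran from 8.99 to 10.26, so its ZT18 level lay within or near the daytime range. CG14186 stood at 8.96 and 9.16 at ZT18, against 11.53, 12.32 and 11.86 at ZT12 (-2.84 ± 0.50, adjusted p = 0.0122, lost without either ZT18 array, up to 0.117).

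Members that were not called included Arc1, the capsid-forming gene, with 2.73 and 4.69 at ZT18, against 7.10, 6.77 and 8.33 at ZT12 (-3.69, adjusted p = 0.142). Jra, the fly Jun, gave -1.59 (adjusted p = 0.0726), chinmo gave -1.95 (0.114), Gadd45 gave -1.56 (0.200) and Mkp3, an ERK phosphatase, gave -1.36 (0.219) on its brightest probe set and -2.51 (0.0601) on another. The fly Fos gene kay stood at -0.51 and Hr38 at -0.88, with overlapping arrays, while puc and Atf3 were positive (0.53 and 0.62). The list median ran from -0.99 to -1.52 over the refits. Its called members were 2, 2 and 3 without ZT12 replicates 1, 2 and 3, 1 without ZT18 replicate 1 and 0 without ZT18 replicate 2.

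Sugar breakdown was the other list with 2 calls. Of 13 measured genes of glycolysis and the glycerol phosphate route, 2 fell and 0 rose, 7 were lower and 1 higher at an unadjusted p under 0.05 (53.8%, beside 10.4%, and 7.69%, beside 5.84%), and the median was -0.92. Ald1, the aldolase gene, had 10.58 and 10.85 at ZT18, against 12.51, 12.84 and 12.46 at ZT12 (-1.89 ± 0.32, adjusted p = 0.00867). Its ZT0 and ZT6 values of 11.74 to 12.23 were close to those at ZT12, so the low values were those of ZT18. Pfk, the phosphofructokinase gene, had 7.49 and 8.20 at ZT18, against 9.52, 9.58 and 10.16 at ZT12 (-1.91 ± 0.35, adjusted p = 0.0152), with 9.58 to 10.11 at ZT0 and ZT6. A second probe set of Ald1, near background, gave -1.48 (adjusted p = 0.435).

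The rest of the pathway gave smaller differences. Eno, the enolase gene, gave -1.17 (adjusted p = 0.0622), Gapdh1 gave -1.14 (0.0723), Pgk gave -1.08 (0.111), Tpi gave -1.05 (0.136) and the hexokinase gene Hex-A gave -0.92 (0.192). In each of these the ZT18 arrays lay below all ZT12 arrays. That held in 7 of the 13 listed genes (53.8%), and in 1 the ZT18 arrays lay above all ZT12 arrays. Of all probe sets 18.2% lay without overlap in the lower direction and 13.3% in the higher one. Pgi (-0.21), Gpdh1 (-0.13 on its brightest probe set) and Pglym78 (0.19) had overlapping arrays, and the glycogen synthase gene Glys went the other way with 1.31 (adjusted p = 0.0854). Both calls were lost without ZT18 replicate 1 (adjusted p up to 0.219 for Pfk and 0.109 for Ald1), while the list median ran from -0.68 to -1.08 over the 5 refits.

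Argk1, the arginine kinase that buffers ATP in insect cells, belongs to no list and was named after its values were seen. It had 9.75 and 9.82 at ZT18, against 12.50, 11.89 and 12.02 at ZT12 and 12.17 to 12.96 at ZT0 and ZT6. Like Ald1 and Pfk it was low at ZT18 relative to every other time (-2.35 ± 0.35 against ZT12, adjusted p = 0.00397, lost without ZT18 replicate 1 at 0.0551). Gpdh3, a glycerol phosphate dehydrogenase gene, fell by 2.77 (adjusted p = 0.0202, lost in 3 of 5 refits, up to 0.224).

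Mitochondrial genes leaned the other way without a call. Of 69 genes of the mitochondrial ribosome 0 were called, 13 were higher and 0 lower at an unadjusted p under 0.05 (18.8%, beside 5.84% over all genes), and 56 differences were positive, with a median of 0.39. Of 56 genes of the respiratory chain and ATP synthase 0 were called, 13 were higher and 0 lower (23.2%), and 42 were positive, with a median of 0.30. Examples are mRpL10 with 1.63 (adjusted p = 0.0834), mRpL33 with 1.82 (0.0911), and COX8 with 1.20 (0.130).

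The size of this lean depended on single arrays. COX8 had 12.65 and 12.32 at ZT18, against 11.92, 10.20 and 11.73 at ZT12, and UQCR-6.4 had 13.28 and 13.35 at ZT18, against 12.73, 10.32 and 12.02, with ZT12 replicate 2 the low array both times. Without that array the medians were 0.24 for the mitochondrial ribosome and 0.19 for the respiratory chain, with 10 and 6 members higher at an unadjusted p under 0.05, and the median of all genes was -0.15. Without ZT12 replicate 1 the medians were 0.70 and 0.44, with 19 and 17 members higher at that p. Without ZT18 replicate 1 or 2 the members higher at that p were 7 and 7 for the mitochondrial ribosome and 5 and 5 for the respiratory chain. Genes of the cytosolic ribosome had a median of 0.03 over 34 members, 0 of them called, and -0.24 without ZT12 replicate 2. The proton pump genes of the vacuolar ATPase had 15 of 17 differences negative, beside 3606 of 6663 over all genes, with 0 called and a median of -0.42. At an unadjusted p under 0.05, 3 of 17 were lower (17.6%, beside 10.4%), 5 without ZT12 replicate 2 and 0 without ZT12 replicate 3. Their median was -0.31 without ZT18 replicate 1 and -0.61 without ZT18 replicate 2.

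**Figure D3:**
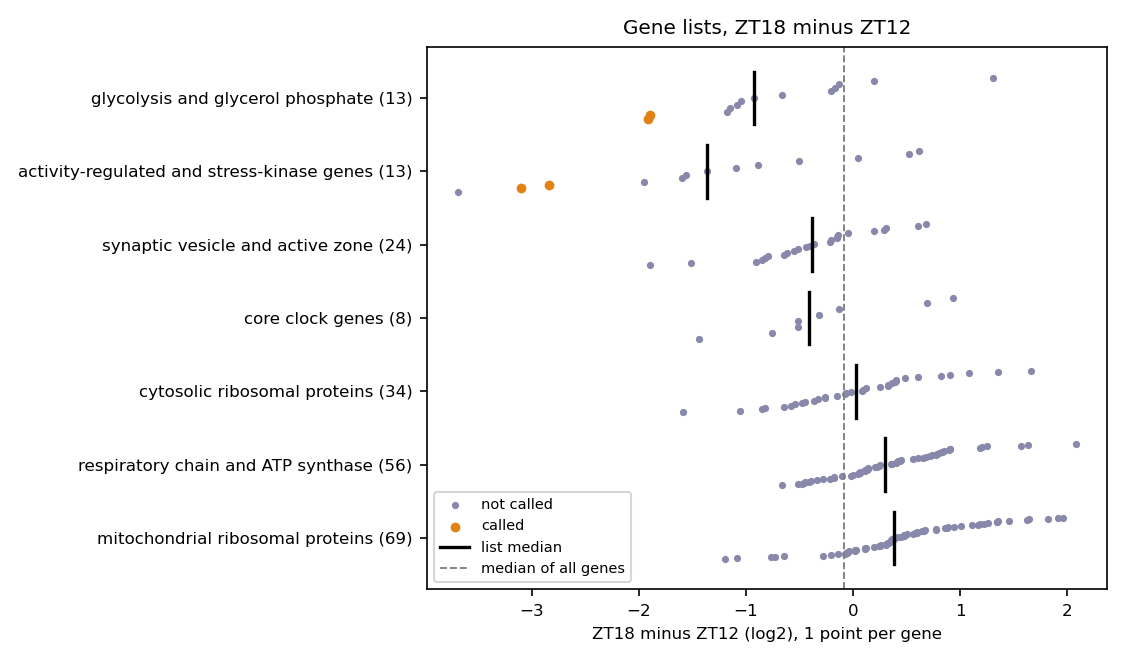
Difference between ZT18 and ZT12 (log2, horizontal axis) for each measured gene of 7 lists, 1 point per gene, with the number of genes in parentheses and the height within a row used only to spread the points. The black bars are list medians, from -1.36 for activity-regulated genes to 0.39 for the mitochondrial ribosome, and the dashed line is the median of all genes, -0.080.

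Protein folding had 1 call. Gp93, the Hsp90 of the endoplasmic reticulum, stood at 10.04 and 10.13 at ZT18, against 11.95, 11.90 and 11.56 at ZT12 (-1.72 ± 0.35, adjusted p = 0.0239, lost in 4 of 5 refits, up to 0.211). Of 21 chaperone genes it was the only one called, the median was -0.32, and Hsc70-4, the main constitutive Hsp70, gave -1.08 (adjusted p = 0.0601). Hsf, the heat shock transcription factor gene, which was named after its values were seen, fell by 1.94 (adjusted p = 0.0243, lost in each of the 5 refits, up to 0.228). Its usual targets Hsp26, Hsp27 and Hsp68 had 0.35, 0.48 and 0.63, with adjusted p from 0.662 to 0.857. Of the 21 chaperone genes 14 were negative and 7 positive, with 0.63 the highest value of the list.

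Rises were fewer. CG13295, of unknown role here, had 7.60 and 8.08 at ZT18, against 3.73, 4.76 and 3.63 at ZT12, a rise of at least 7.17-fold (3.80 ± 0.75, adjusted p = 0.0206, lost in 3 of 5 refits, up to 0.117). The gene bbg, which codes for a PDZ protein of cell junctions, had 6.54 and 5.89 at ZT18, against 2.80, 2.54 and 2.50 at ZT12 and 2.46 to 2.57 at ZT0 and ZT6. It was thus read above background at ZT18 alone, at least 2.32-fold higher than at ZT12 (3.60 ± 0.75, adjusted p = 0.0243, lost in each of the 5 refits, up to 0.261). Aduk, a kinase of the Unc-51 family that includes autophagy kinases, had 7.26 and 6.54 at ZT18, against 4.20, 4.18 and 2.69 at ZT12, at least 3.74-fold higher (3.21 ± 0.51, adjusted p = 0.00568, lost without ZT18 replicate 1 at 0.0972). Another probe set of Aduk, near background, gave 0.25.

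CHES-1-like, a forkhead transcription factor gene, had 10.78 and 10.22 at ZT18, against 8.04, 7.92 and 8.11 at ZT12 (2.48 ± 0.42, adjusted p = 0.00867, lost without ZT18 replicate 1 at 0.129). BHD, the fly folliculin, had 8.04 and 8.69 at ZT18, against 6.14, 5.40 and 6.07 at ZT12 (2.49 ± 0.51, adjusted p = 0.0231). For kel, a substrate adaptor of Cullin 3 that was found in egg chambers, the values were 8.57 and 9.79 at ZT18, against 7.41, 7.22 and 6.78 at ZT12 (2.04 ± 0.39, adjusted p = 0.0164). Arglu1 (1.62, adjusted p = 0.0152), the Sox gene D (2.14, adjusted p = 0.0468) and CG13033 (2.43, adjusted p = 0.0164) rose as well. These 5 lost the call in 1 to 4 of 5 refits, with adjusted p up to 0.144 for BHD, 0.160 for kel, 0.109 for Arglu1, 0.345 for D and 0.113 for CG13033.

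CG17777, named after its values were seen, was the brightest gene that rose, with 13.10 and 13.47 at ZT18, against 11.23, 9.97 and 11.42 at ZT12. Its ZT0 and ZT6 values were 12.83 to 13.80, so its ZT12 arrays were the low ones (2.42 ± 0.49, adjusted p = 0.0231, lost in 3 of 5 refits, up to 0.124). The probe set shared by sloth1 and sloth2, small mitochondrial peptides, rose by 2.35 (adjusted p = 0.0227, lost in 4 of 5 refits, up to 0.166). Next in order but not called were smo (2.23), ClC-a (2.11), Rpp25 (2.02), Snoo (1.69) and l(3)neo43 (1.54), each with an adjusted p of 0.0592.

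None of the clock genes was called. The gene per, whose protein is the repressor of the loop, came closest, with 10.34 and 9.98 at ZT18, against 11.43, 12.69 and 10.67 at ZT12 (-1.44 ± 0.58, adjusted p = 0.219). Its ZT0 and ZT6 values were 7.33 to 8.18, so ZT18 was still above the day. The repressor gene vri had 13.44 and 13.49 at ZT18, against 13.73, 14.45 and 13.74 at ZT12 (-0.51 ± 0.63, adjusted p = 0.769), and 6.20 to 8.58 at ZT0 and ZT6. For tim, the partner of per, the values were 13.63 and 13.55 at ZT18, against 13.48, 13.82 and 13.86 at ZT12 (-0.13 ± 0.49, adjusted p = 0.950). All 3 were thus high at both night times relative to ZT0 and ZT6. The sign of tim turned with quantile normalization (0.10).

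Pdp1, the activator of Clk, had 12.96 and 12.74 at ZT18, against 12.45, 11.79 and 12.23 at ZT12 (0.69 ± 0.45, adjusted p = 0.477). Clk itself had 7.62 and 5.68 at ZT18, against 7.42, 4.35 and 5.38 at ZT12, with overlap between the times (0.93 ± 0.69, adjusted p = 0.550), and 8.78 to 10.34 at ZT0 and ZT6. The remaining differences were -0.31 for cwo, a repressor of the same targets, -0.51 for cyc, the partner of Clk, -0.76 for cry, the blue light receptor of the clock, and 0.11 for Pdf, with adjusted p from 0.609 to 0.956. The sign of Pdf turned with median centring (-0.04) and quantile normalization (-0.09), and that of Clk without ZT18 replicate 1 (-0.04). Among 10 kinase and protein turnover genes of the clock 0 were called and 8 were negative. The nearest was tyf, which activates translation of per, with 9.39 and 8.87 at ZT18, against 10.61, 10.89 and 11.03 at ZT12 (-1.71, adjusted p = 0.134).

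**Figure D4:**
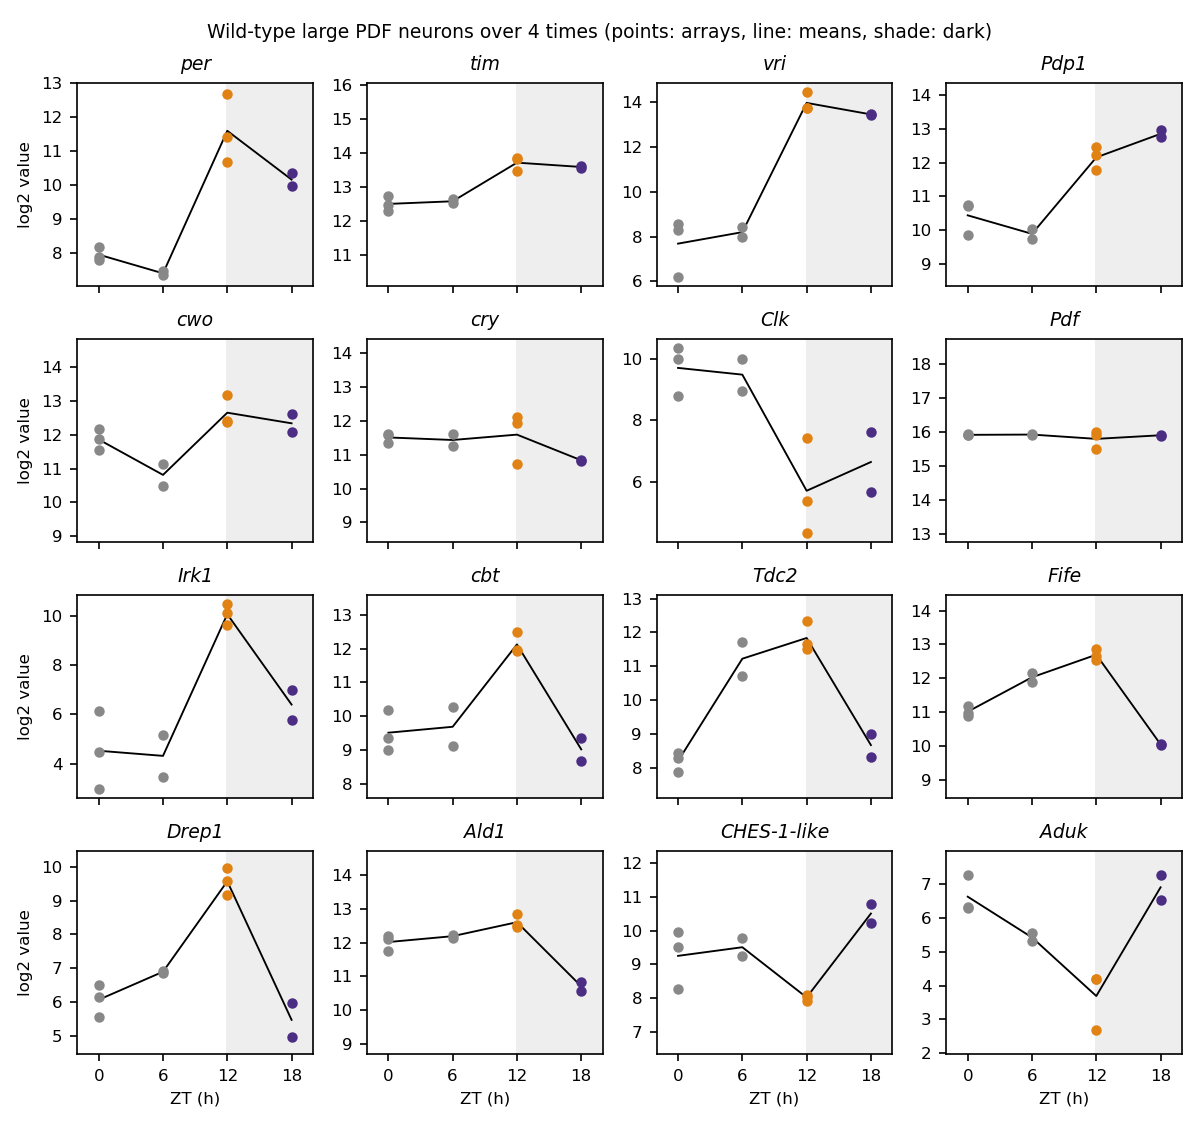
Log2 GCRMA values (vertical axes, each spanning 6 log2 units or more) of 16 genes on the 10 wild-type large PDF arrays at ZT0, ZT6, ZT12 and ZT18 (horizontal axes, in h), with points for arrays, lines for means and shade for the dark phase. The clock genes per, vri and Pdp1 stay above their ZT0 and ZT6 values at ZT18, while cbt, Tdc2, Fife, Drep1 and Ald1 drop between ZT12 and ZT18.

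For most called genes ZT12 or ZT18 was the extreme of the 4 times. Of the 68 that fell, the ZT12 mean was the highest of the 4 in 58 and the ZT18 mean the lowest in 60. Of the 16 that rose, the ZT12 mean was the lowest in 11 and the ZT18 mean the highest in 11. Both counts are shaped by the choice of genes on these 2 times. The ZT0 and ZT6 values are not in the difference that chose the genes, though they enter its estimate of spread and the filter. Over the 68 the median mean level was 7.41 at ZT0, 7.76 at ZT6, 8.92 at ZT12 and 6.23 at ZT18.

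The day step, ZT6 minus ZT0, uses arrays that are not in that difference. It was positive in 44 of the 68 probe sets that fell (64.7%, beside 50.9% of all tested), with a median of 0.42. Of the 16 that rose it was negative in 9 (56.2%, beside 49.1% of all), with a median of -0.44.

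In 66 of 8318 probe sets (0.793%) the night step differed from the day step by limma's test of the difference, 48 with a negative difference (0.577%) and 18 with a positive one (0.216%). Of these, 34 were also called between ZT18 and ZT12, which is no separate evidence since the night step enters both. They comprised 27 that fell and 7 that rose. Leaving out 1 array moved the 66 to 17 (without ZT18 replicate 1), 20 (without ZT6 replicate 2), 27 (without ZT6 replicate 1), 36 (without ZT18 replicate 2) and 101 (without ZT0 replicate 1). ZT0 replicate 2 carried signals of other cells, with the haemocyte genes Ppn at 10.3 and Col4a1 at 10.4 and the glial gene Gs2 at 9.53, and without it 50 were called. The part of these signals was not tested.

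Tdc2 gave a large difference between the steps, being up in the day step and down in the night step. It had 11.72 and 10.73 at ZT6, against 7.88, 8.44 and 8.30 at ZT0, a day step of 3.02, beside its night step of -3.16. The difference of the steps was -6.18 ± 0.83 (adjusted p = 0.00125), called in all 10 refits that each leave out 1 array of the 4 times (adjusted p at most 0.0170). Rab27 (-5.71, adjusted p = 0.000737), Fife (-3.66, adjusted p = 0.000737), Drep1 (-4.92, adjusted p = 0.00419), Irbp (-4.94, adjusted p = 0.00874) and Pka-R1 (-3.84, adjusted p = 0.000737) also kept this call in all 10. Pka-R1 had 11.87 and 11.79 at ZT6, against 9.97, 10.35 and 10.07 at ZT0, so its level was high at ZT6 and ZT12 and low at ZT18 and ZT0.

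The dopamine receptor gene Dop1R1 ran the opposite way. It had 9.63 and 8.50 at ZT18, against 3.81, 6.60 and 6.83 at ZT12, and 4.53 and 7.48 at ZT6, against 9.53, 10.05 and 10.09 at ZT0. The night step was 3.32 and the day step -3.89, and their difference of 7.21 ± 1.35 was called (adjusted p = 0.0174, lost in 2 of 10 refits, up to 0.113 without ZT6 replicate 1). Ddc differed between the steps by -3.19 (adjusted p = 0.0181) and Octbeta1R by -4.64 (adjusted p = 0.0262), lost in 3 and 6 of 10 refits (up to 0.107 and 0.119). Cipc, whose mammalian namesake binds CLOCK, differed by 3.21 (adjusted p = 0.0342, lost in 8 of 10 refits, up to 0.162), with 11.24 and 11.36 at ZT18, against 9.86, 10.20 and 10.03 at ZT12. These genes were named after their values were seen.

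**Figure D5:**
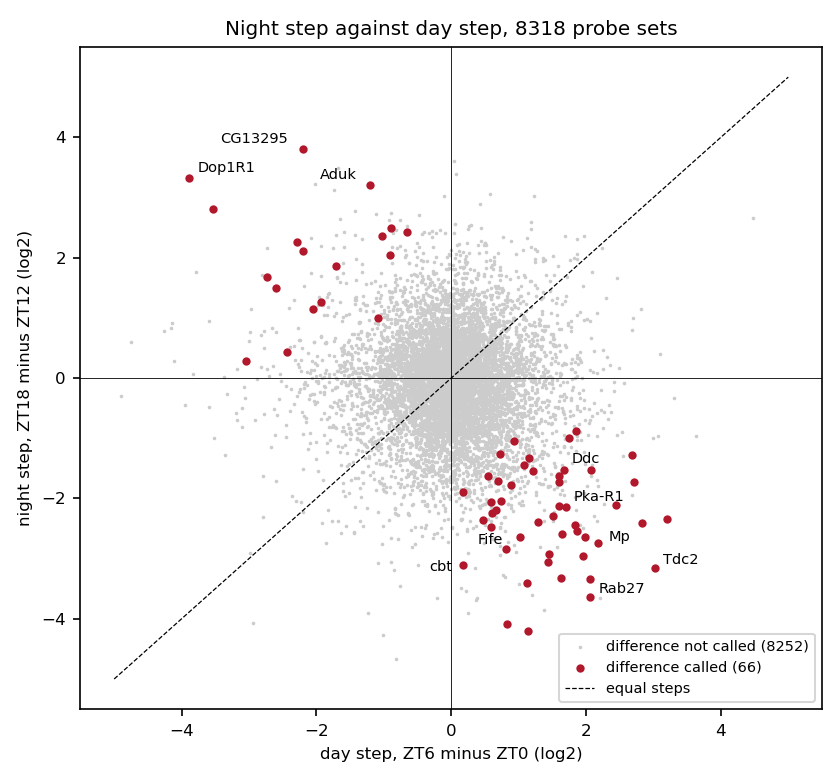
Night step (ZT18 minus ZT12, log2, vertical axis) against day step (ZT6 minus ZT0, log2, horizontal axis) for 8318 probe sets, 1 point each. The 66 probe sets whose steps differ by limma's test are in red, 48 below the dashed line of equal steps and 18 above it, with Tdc2 at 3.02 by day and -3.16 by night and Dop1R1 at -3.89 and 3.32.

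Other cells of the series were sampled at ZT12 and ZT0 only, so the step from ZT12 to ZT18 has no counterpart there, but the ZT12 level can be set against ZT0 on arrays that entered the choice of genes through the spread and the filter alone. Over the 68 probe sets that fell, ZT12 minus ZT0 was above 0 in 36 (52.9%, beside 49.3% of all) in small PDF neurons, with a median of 0.19. In ELAV neurons it was above 0 in 47 (69.1%, beside 57.5%), with a median of 0.16. In per01 large PDF neurons, whose clock lacks working per, it was above 0 in 53 (77.9%, beside 54.6%), with a median of 0.46. Over the 16 that rose the medians were -0.28, -0.02 and -0.16. How far these cell kinds differ from each other in this was not tested.

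The called genes lay on all large chromosome arms. Of 65 genes that fell and have a chromosome in RefSeq, 12 lay on X (18.5%, beside 16.6% of the 6642 tested genes with one), 18 on 2R (27.7%, beside 20.5%), 18 on 3L (27.7%, beside 19.5%), 11 on 3R (16.9%, beside 24.6%) and 6 on 2L (9.23%, beside 18%). Their median level in ELAV neurons was 8.04, beside 7.25 for all probe sets tested. Of the 68, 21 had both ZT18 values under 5, and of the 16 that rose 7 had all ZT12 values under 5, so the log2 differences of these reach into background.

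Lists not yet given had few or no calls. Of 11 whole-head cycling genes, 21 identity factors, 10 genes of fatty acid and sterol metabolism and 7 of chloride transport 0 were called on the brightest probe set. Trpm, a cation channel gene of the whole-head list and the channel list, fell on 1 of its 3 probe sets by 2.21 (adjusted p = 0.0202, lost in 3 of 5 refits, up to 0.211), with -1.53 and -0.62 on the others. Of 22 metabotropic and peptide receptor genes, 15 ionotropic receptor genes, 24 genes of neurite growth and adhesion, 14 nuclear receptors, 26 proteasome subunits, 36 translation factors, 55 genes of autophagy and lysosome and 20 of RNA splicing and binding, 0 were called in either direction by limma, with 2 or fewer higher and 7 or fewer lower at an unadjusted p under 0.05 in each. Named after their values were seen, Doa, a splicing kinase, fell by 1.63 (adjusted p = 0.0243, lost in 3 of 5 refits, up to 0.344). The gene fl(2)d of the RNA methylation complex fell by 1.79 (adjusted p = 0.0468, lost in 3 of 5, up to 0.375). HUWE1, a ubiquitin ligase gene, fell by 2.34 (adjusted p = 0.0161, lost without either ZT18 array, up to 0.113), and Tnks, the tankyrase gene, by 2.15 (adjusted p = 0.016, lost without ZT18 replicate 1 at 0.211). Mp, the collagen XV/XVIII gene, had 7.98 and 6.35 at ZT18, against 9.93, 10.42 and 9.37 at ZT12 (-2.74 ± 0.55, adjusted p = 0.0228, lost in 3 of 5, up to 0.193).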

How the data were processed

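RNA of sorted cells was hybridised to Affymetrix arrays after 2 rounds of T7 amplification, per the labels' protocols. The deposited values are log2 GCRMA values; the submitters' processing notes name R 2.6. GCRMA subtracts background by probe base content, puts arrays on 1 scale and gives 1 value per probe set. The set of arrays scaled jointly was not stated. Of 18952 probe sets 183 are controls. Those left with log2 of 5 or more on at least 2 arrays (8318, of them 7217 with 1 gene symbol, for 6663 genes) were tested with limma 3.58.1 in R 4.3.3 over 24 arrays and 10 group means (14 residual and 3.62 prior degrees of freedom), with p adjusted over all 8318. The number of arrays limits the precision. Names came from the platform annotation and RefSeq. The members and all 44 gene lists were chosen with earlier results of these data known. Named genes were 8 clock genes and Pdf, the 12 largest changes each way with a gene name and the 2 with a CG or CR number, filled by the smallest p where under 12 were called, and up to 4 called members per list, each read by its probe set with the highest mean. Genes named after their values were seen are marked, and so were chosen Rim, Trpm, Teh2, Gpdh3, Mp and the probe set of sloth1 and sloth2. Uncalled list members given as examples, such as Rop, Arc1, Ca-beta, tyf and COX8, were outside the naming rule and were not set in advance. St3, MME1, Sidpn, gem, hbs, Pvr, qsm, beat-Ic and Ten-m were also named after their values were seen. A fold is given as "at least" where every array of the lower group is under 5, with values under 5 raised to 5. The fit was tested on simulated data. Alternatives were other filters, a floor at 5, 2 scalings, fewer arrays in the fit, other moderation, array weights, a 2-fold limit, 1 probe set per gene, a replicate block and leaving out each array. Counts of list members without each array were chosen after seeing the data. Replicate numbers were not taken to pair the arrays. Same-numbered ZT18 and ZT12 arrays deviated together at -0.031 and -0.030. The deviations of the 2 ZT18 arrays mirror each other, so these are not separate checks and cannot settle pairing. No sequence is shown.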

Additional observations from a re-analysis of the deposited data

Results flagged for a closer look

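In 66 of 8318 probe sets the night step (ZT18 minus ZT12) differed from the day step (ZT6 minus ZT0) by limma's test of the difference, at an adjusted p under 0.05. The values below are night step minus day step in log2 for the genes named here that passed that test. Many of these genes were named after their values were seen, among them Pvr, Sidpn, MME1, beat-Ic, Ten-m, St3, gem, hbs and qsm. Their passing is therefore no separate evidence. Negative differences were those of Tdc2 (-6.18), Rab27 (-5.71), Pvr (-5.41), Pgant9 (-5.35), Irbp (-4.94), Mp (-4.92), Drep1 (-4.92), Sidpn (-4.92), Octbeta1R (-4.64), nemy (-4.52), MME1 (-4.49), beat-Ic (-4.44) and Ten-m (-4.27). Smaller ones of the same sign were those of St3 (-4.23), Pka-R1 (-3.84), Cog6 (-3.68), Fife (-3.66), CG14186 (-3.66), cbt (-3.27), Ddc (-3.19), Grasp65 (-3.07), Rim (-2.84), Argk1 (-2.83), gem (-2.67), Gp93 (-2.41), Doa (-2.19) and Ald1 (-2.07). St3 and Rim are read here by a dimmer probe set. Their brightest probe sets gave -2.13 (adjusted p = 0.519, limma) for St3 and -1.34 (0.225) for Rim, neither called. Positive differences were those of Dop1R1 (7.21), hbs (6.35), CG13295 (5.99), Aduk (4.41), ClC-a (4.32), BHD (3.39), the probe set of sloth1 and sloth2 (3.39), qsm (3.33), Cipc (3.21), CG13033 (3.08) and kel (2.95). Of the 10 fits that each leave out 1 array of the 4 times, none ended the call of Tdc2, Rab27, Irbp, Mp, Drep1, St3, Pka-R1 and Fife, and up to 9 ended that of the others. ZT0 replicate 2, which enters every value here, carried haemocyte genes (Ppn at 10.3), whose part was not tested. The groups hold 2 or 3 arrays, so no array was tested as an outlier. Gad1 at 9.51 on ZT18 replicate 2, beside 2.98 on ZT18 replicate 1, differed by more between these 2 arrays than any other marker of other cells.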

How the results depend on the processing

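Of 8318 probe sets, 84 were called between ZT18 and ZT12, and the calls kept their sign under every alternative that tested them. With fewer arrays, other filters or other moderation this was fixed in advance, since none of the 84 had overlapping arrays. The count was 330 without a filter, 142 and 152 with a filter at log2 7 and a filter on the 5 arrays, 211 with values raised to 5, 146 with median centring, 194 with trend and robust moderation, 14 with the 10 wild-type large PDF arrays and 0 with the 5 arrays alone (938 at an unadjusted p under 0.05 in limma). Leaving out 1 array gave 13 (without ZT18 replicate 1) to 101 (without ZT12 replicate 3), with 44 without ZT18 replicate 2 and 48 without ZT12 replicate 1. The 66 differences between steps became 109 with values raised to 5, 107 with trend and robust moderation, 131 with array weights and 11 with either smaller set of arrays, and 17 (without ZT18 replicate 1) to 101 (without ZT0 replicate 1) without 1 array. The cause was not tested. The replicate block gave 96 calls between the times and 55 between the steps, although pairing by number was not established. Uncalled genes changed sign: Pdf had -0.036 with median centring, -0.090 with quantile normalization and -0.041 to 0.20 without 1 array, tim had 0.10 with quantile normalization, and Clk ran from -0.039 to 1.91 without 1 array. With 2 arrays at ZT18 and values near background under log2 5, small differences were not detectable.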
